A study of Mus musculus with 12 samples.

Results

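The miR-17~92 and miR-106b~25 clusters are a pair of related microRNA genes, each copied as 1 primary RNA that holds several hairpins. Their members were taken as 10 named precursors: mmu-mir-17, mmu-mir-18a, mmu-mir-19a, mmu-mir-20a, mmu-mir-19b-1 and mmu-mir-92a-1 of miR-17~92, mmu-mir-106b, mmu-mir-93 and mmu-mir-25 of miR-106b~25, and mmu-mir-92a-2, which gives the same mature miR-92a-3p from the X chromosome. All 10 had reads, of 1532 precursors with reads in the study, and together they took 199336 of 62878432 reads (0.317%). The reads came from small RNA libraries of the retina of db/db mice, a strain with a defect of the leptin receptor that grows obese and diabetic. The labels name 6 libraries model, taken here as db/db mice without the drug, and 6 Keluoxin-treatment; Keluoxin is a Chinese herbal capsule, given on the same db/db genotype and KsJ background. The strain label reads C57BL/KsJ-db/db in model library 1, and its first number is higher by 1 in each later library, up to C68BL/KsJ-db/db in Keluoxin library 6, so that no 2 libraries carry the same strain label; the number was not used. Every animal behind these libraries was therefore diabetic by genotype, no non-diabetic group was analysed here, and the labels give neither age, dose nor length of treatment. The tissue is taken from the source label, which is retinal, although the extraction protocol mentions an exosome pellet. Whether the 6 libraries of a group stem from different animals is not stated, and the p-values then cover the spread among these libraries alone, some of which may be technical.

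A microRNA hairpin is cut into a short duplex, and 1 of its strands, the 5p or the 3p arm, is loaded into an Argonaute protein. The loaded strand finds target messenger RNAs mainly through its seed, bases 2 to 8 counted from its 5′ end, so miRNAs with the same seed can act on overlapping targets. The miR-17~92 cluster is known as a driver of cell growth and survival, is induced by MYC, and is highly expressed in progenitor and endothelial cells. Its relative miR-106b~25 lies inside Mcm7, a gene for a DNA replication helicase subunit, and both clusters are known to restrain the cell cycle inhibitor p21 and the pro-apoptotic protein BIM.

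On the mouse genome GRCm38 the 6 precursors of miR-17~92 lay at chr14:115043671-115044506 on the plus strand, within 836 bp, all in an exon of the long non-coding RNA Mir17hg. The 3 precursors of miR-106b~25 lay at chr5:138165321-138165818 on the minus strand, within 498 bp of Mcm7. There mir-93 and mir-25 overlapped annotated exons of Mcm7 transcripts and mir-106b lay in an intron. The third, X-linked copy of the family, miR-106a~miR-363, lay at chrX:52741693-52742567 on the minus strand and holds mir-92a-2 and mir-19b-2 beside mir-106a, mir-18b, mir-20b and mir-363.

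The mature sequences are shown by shared seed, since the seed and not the cluster sets which members can act alike. They are those of RefSeq for GRCm38.p6, in which 19 of 19 names looked up were found, and the seed is in capitals.
miR-17-5p: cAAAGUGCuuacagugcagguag
miR-20a-5p: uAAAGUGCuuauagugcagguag
miR-106b-5p: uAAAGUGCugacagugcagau
miR-93-5p: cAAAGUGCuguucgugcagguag
miR-18a-5p: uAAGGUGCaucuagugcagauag
miR-19a-3p: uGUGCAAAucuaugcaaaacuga
miR-19b-3p: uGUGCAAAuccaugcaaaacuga
miR-92a-3p: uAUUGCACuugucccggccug
miR-25-3p: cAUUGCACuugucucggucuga
miR-106b-3p: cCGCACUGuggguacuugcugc
The first 4 share the seed AAAGUGC across both clusters, miR-18a-5p carries AAGGUGC, the pair of miR-19 miRNAs carries GUGCAAA, and miR-92a-3p of one cluster and miR-25-3p of the other carry AUUGCAC. The 3p arm of mir-106b, miR-106b-3p, has the seed CGCACUG, and it had 8215 reads in all libraries against 6836 of the miR-106b-5p arm.

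The libraries held 3819945 to 7892147 counted reads in model and 1933375 to 6066429 in Keluoxin, of which 6331 to 23845 per library fell on the member precursors. Levels are given as CPM, the read count per library size scaled by TMM (trimmed mean of M-values), and changes as log2 of Keluoxin over model. Photoreceptor miRNAs (miR-182, miR-183 and miR-96, all 3 with reads) summed to 354256 to 419024 CPM in model and 188232 to 380145 in Keluoxin, and 2 of their 6 arms fell and 0 rose: miR-182-5p, lower in every Keluoxin library (log2 fold change -0.61, edgeR quasi-likelihood test, adjusted p = 0.021), and miR-183-3p (-0.72, adjusted p = 0.0081). Of the other abundant arms, miR-183-5p was at -0.19 (adjusted p = 0.43) and miR-96-5p at 0.28 (adjusted p = 0.055), with 5 of 6 Keluoxin libraries above all model libraries. Of the endothelial marker miR-126a, the 3p arm was lower without overlap (-0.64, adjusted p = 0.0052) and the less abundant 5p arm was at 0.28 (adjusted p = 0.22). The 4 erythroid markers summed to 89.9 to 110 CPM in model and 86.9 to 792 in Keluoxin, and miR-451a-5p stood at 322, 359, 650 and 147 CPM in Keluoxin libraries 3 to 6 against at most 43.5 in model (3.05, adjusted p = 0.016). Leukocyte markers summed to 76.4 to 86.2 and 72.7 to 92.7 CPM. Keluoxin library 4 stood apart, with the lowest photoreceptor sum and 1895 CPM of muscle markers, against at most 426 in any model library. Blood cells and endothelium are known to be rich in several members of these clusters; how far these cell types bear on the levels below was not tested, and in bulk RNA fewer cells of a type cannot be told apart from less RNA per cell.

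No single member arm passed the test of its level between the groups. Of the 15 member arms with a read, 10 passed the filter on low counts, and 0 of these 10 passed an adjusted p of 0.05 in edgeR's quasi-likelihood test, whereas 17.3% of all 810 arms tested did. An unadjusted p under 0.05 was found for 1 member arm and for 281 of all arms. Of the 10, 8 had a log2 fold change below 0 and 2 above, with a median of -0.10 against 0.03 over all arms tested. On simulated counts for this comparison the fit recovered 18.5% of arms changed 1.5-fold, 50.8% of arms changed 2-fold and 85.2% of arms changed 4-fold. The changed arms were drawn at random from all 810 arms, whatever their level. These rates therefore do not measure how often a change in a member arm would be found.

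**Figure D1:**
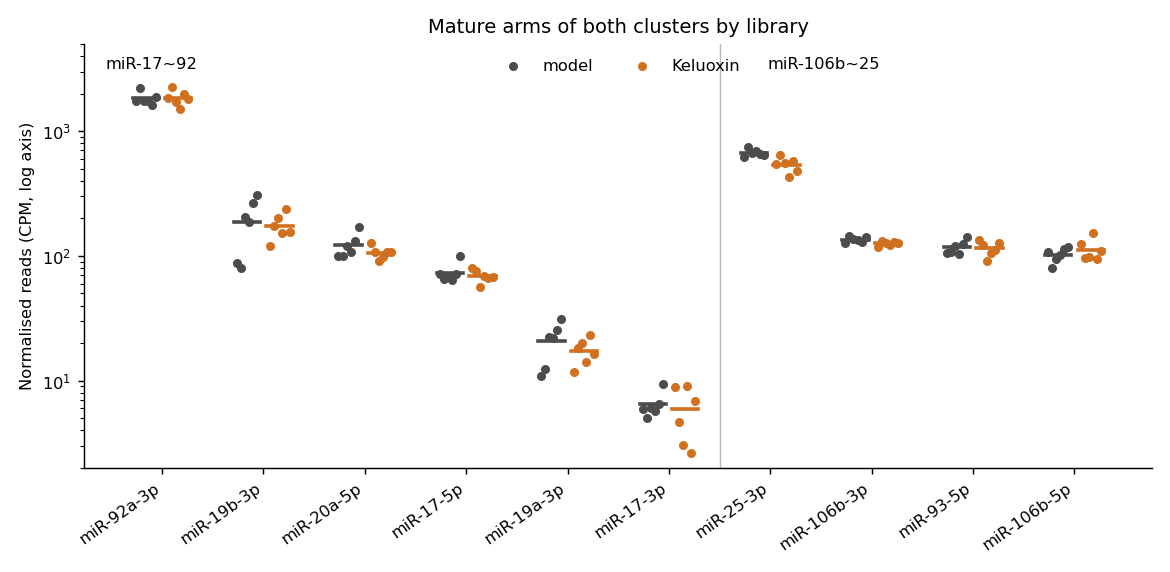
Normalised read count (CPM, log axis) of the 10 tested member arms in each of the 6 model and 6 Keluoxin libraries, with 1 point per library and a bar at each group's mean. The values run from 2.64 CPM for miR-17-3p to 2260 CPM for miR-92a-3p, and the groups overlap for every arm.

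miR-92a-3p, which carries the AUUGCAC seed and is known as a brake on vessel growth in endothelial cells, was the most abundant member, at rank 52 of the 810 arms. It stood at 1635 to 2235 CPM in model (median 1754) and at 1496 to 2260 CPM in Keluoxin (median 1825). The Keluoxin values spanned the whole model range, with Keluoxin library 4 lowest and Keluoxin library 2 highest. The log2 fold change was 0.01 (SE 0.11, adjusted p = 0.94), with an approximate 95% interval from -0.24 to 0.26.

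miR-25-3p, its seed partner from miR-106b~25 and a regulator of cell death genes, was second. Its level was 623, 750, 669, 692, 660 and 643 CPM in model libraries 1 to 6 and 546, 645, 553, 426, 574 and 481 CPM in Keluoxin libraries 1 to 6. All Keluoxin libraries except library 2 lay below all model libraries. The log2 fold change was -0.32 (SE 0.11, unadjusted p = 0.00996, edgeR adjusted p = 0.054, interval from -0.56 to -0.09), which just missed the threshold. The adjusted p ran from 0.017 to 0.20 over 23 alternatives and passed in 8 of them, among them DESeq2 (-0.35, adjusted p = 0.017), exact reads only (-0.42, adjusted p = 0.024) and the fits without model library 1 (0.046), Keluoxin library 2 (0.037) or Keluoxin library 3 (0.044). With total counted reads as the only scaling the change was -0.16 (edgeR adjusted p = 0.20). That scale moved the median of all arms up by 0.19. Relative to that median miR-25-3p stood at -0.38, against -0.36 with TMM. Scaling moves all arms by nearly the same amount, so the closeness of these 2 values is fixed in advance and is no support. Without Keluoxin library 4, which stood apart in its markers, it was at -0.28 (adjusted p = 0.067).

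The miR-19 miRNAs, which are known to carry much of the cluster's growth-promoting activity, varied more within a group than between the groups. miR-19b-3p stood at 86.9, 79.7, 206, 188, 264 and 307 CPM in model libraries 1 to 6 and at 119 to 237 CPM in Keluoxin (median 165). Model libraries 1 and 2 were below every Keluoxin library and model libraries 5 and 6 above every one. The log2 fold change was -0.12 (SE 0.32, adjusted p = 0.80), with an interval from -0.84 to 0.60. miR-19a-3p was low and high in the same libraries, with 9.32 to 15.5% as many reads: 10.9 and 12.4 CPM in model libraries 1 and 2 and 22.1 to 31.4 in the other 4, against 11.8 to 23.2 in Keluoxin (-0.27, SE 0.27, adjusted p = 0.48). Without model libraries 1 and 2, a choice made after the values were seen, miR-19b-3p was at -0.47 (adjusted p = 0.12).

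The 4 arms with the seed AAAGUGC, which promote passage from the G1 to the S phase by acting on p21 and on retinoblastoma family genes, were close to each other in level. miR-20a-5p ran from 99.2 to 172 CPM in model (median 114) and from 90.8 to 127 in Keluoxin (median 107), with a log2 fold change of -0.19 (SE 0.15, adjusted p = 0.37). miR-93-5p ran from 103 to 142 in model (median 114) and from 90.8 to 134 in Keluoxin (median 117), at -0.02 (SE 0.13, adjusted p = 0.91). miR-17-5p ran from 64.5 to 99.5 (median 69.5) and from 56.8 to 79.6 (median 68.5), at -0.08 (SE 0.14, adjusted p = 0.68). For these 3 arms model library 6 was the highest of all 12, and the remaining libraries of both groups lay over each other. miR-106b-5p ran from 79.7 to 118 CPM in model and from 94.5 to 153 in Keluoxin, where library 4 was highest, at 0.13 (SE 0.15, adjusted p = 0.53).

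miR-106b-3p, the more abundant arm of its hairpin by total reads, had the tightest levels of all members: 127 to 144 CPM in model (median 135) and 117 to 132 in Keluoxin (median 127), at -0.10 (SE 0.08, adjusted p = 0.40). miR-17-3p, the minor arm of mir-17, stood at 5.05 to 9.43 and 2.64 to 9.14 CPM, at -0.10 (SE 0.32, adjusted p = 0.83). The remaining 5 arms with reads were too low to test: miR-18a-5p, the sole arm of the AAGGUGC seed, had 4 reads in all 12 libraries, and miR-25-5p, miR-20a-3p, miR-93-3p and miR-92a-1-5p had 33, 42, 89 and 122. Beside mir-18a on the same primary RNA, mir-17 gave 4418 reads from its 5p arm alone.

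**Figure D2:**
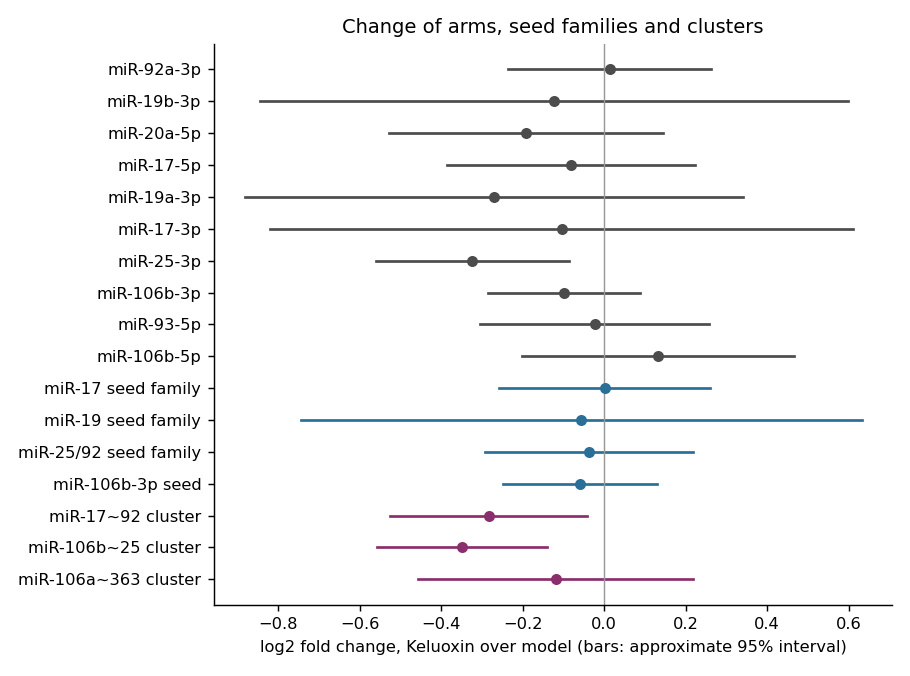
Log2 fold change (Keluoxin over model) of the 10 tested member arms, the seed families and the clusters, with approximate 95% intervals. The intervals of miR-25-3p, the miR-106b~25 cluster and the miR-17~92 cluster lie below 0, of which the miR-106b~25 cluster alone passed after adjustment, while those of miR-92a-3p and of the miR-17 seed family (AAAGUGC) span 0.

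Reads were also summed by seed. Member arms made up 99.6% of the 25656 reads with AAAGUGC, of which miR-93-5p gave 28.2%, miR-20a-5p 27.5%, miR-106b-5p 26.6% and miR-17-5p 17.2%. The AAAGUGC sum was 356 to 524 CPM in model (median 388) and 343 to 469 in Keluoxin (median 414), at 0.00 (SE 0.12, adjusted p = 0.996). The AUUGCAC family was the largest, with 166247 reads: 68.9% from miR-92a-3p, 22.9% from miR-25-3p and 7.89% from miR-92b-3p, the product of a lone gene. Its sum was 2448 to 3282 CPM in model and 2069 to 3224 in Keluoxin, at -0.04 (SE 0.11, adjusted p = 0.84). The GUGCAAA family, in which 10973 of 11034 miR-19b-3p reads match mir-19b-1 and the X-linked mir-19b-2 alike, stood at 93.6 to 331 and 137 to 271 CPM, at -0.06 (SE 0.31, adjusted p = 0.92), and CGCACUG, which is miR-106b-3p alone, at -0.06 (SE 0.08, adjusted p = 0.65). None of the 4 families tested passed, whereas 11.2% of the 569 seed families in the fit did.

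Within the AUUGCAC family every Keluoxin library had fewer miR-25-3p reads per miR-92a-3p read than any model library. miR-25-3p reads were 33.6 to 40.4% of miR-92a-3p reads in the model libraries (36.9% ± 2.89, SD, n = 6) and 26.7 to 32.3% in Keluoxin (29.1% ± 1.84, n = 6), with no overlap. This ratio within a library does not depend on the scaling between libraries, but it was chosen after the levels were seen and so is a description without a test. Of the 809 other arms tested for level, 2.72% were lower relative to miR-92a-3p without overlap. As a share of the reads of miR-25-3p, miR-92a-3p and miR-92b-3p together, miR-25-3p held 23.1 to 26.1% in model and 19.1 to 22.6% in Keluoxin, again without overlap. By contrast, miR-25-3p as a share of its cluster mate miR-106b-3p overlapped between the groups (456 to 520% against 349 to 487%). The ratio of all arms of miR-17~92, reads shared with X-linked copies included, to all arms of miR-106b~25 overlapped too (2.07 to 2.39 in model and 2.28 to 2.67 in Keluoxin).

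Reads were also summed over each genomic cluster, leaving out reads that match precursors of more than 1 cluster. Here miR-106b~25 was lower in Keluoxin. It ran from 1381 to 1663 CPM in model (median 1564) and from 1112 to 1427 in Keluoxin (median 1201), on the scale of this fit, which holds 69.9% of all reads. Of the 6 Keluoxin libraries 5 lay below all model libraries, and library 2 lay above only model library 1. The log2 fold change was -0.35 (SE 0.09, edgeR adjusted p = 0.027), where 9.98% of the 481 clusters and lone precursors were called lower. The call was lost in 8 of 25 alternatives with the same sign, including the fits without model library 3, 4 or 5 or Keluoxin library 3 or 6 (adjusted p from 0.054 to 0.058). Without Keluoxin library 4 it was -0.32 (adjusted p = 0.040). With total counted reads the change was 0.01 (edgeR adjusted p = 0.93), where the median of all clusters rose by 0.36. Relative to that median it was -0.36, the same as with TMM. A change of scaling moves all features by nearly the same amount. This match therefore follows from the subtraction and is no support for the call. With annotated precursors only the change was smaller, at -0.18 (adjusted p = 0.043), or -0.15 relative to the median. miR-25-3p gave 62.9% of the cluster's reads, miR-106b-3p 13.6%, miR-93-5p 12% and miR-106b-5p 11.3%. Summed over its arms on the scale of the arm levels, the cluster averaged 1030 CPM ± 38.7 in model. In Keluoxin it averaged 892 ± 65.9 (SD, n = 6 per group), and that sum was not tested. On that scale the tested arms stood at -0.32 (miR-25-3p), -0.10 (miR-106b-3p), -0.02 (miR-93-5p) and 0.13 (miR-106b-5p). The -0.35 of the cluster fit, on its own scale, was a larger fall than that of any arm on the scale of the arm levels. No read of this cluster matched a precursor of another cluster, so both scales count the same reads. The size of the fall therefore depends on the scale, and -0.35 cannot be set directly against the values of the arms.

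The miR-17~92 sum ran from 1974 to 2601 CPM in model (median 2280) and from 1625 to 2235 in Keluoxin (median 1820), at -0.28 (SE 0.11, adjusted p = 0.079). It passed without model library 1 (-0.39, adjusted p = 0.019) or Keluoxin library 2 (-0.40, adjusted p = 0.038). On exact reads only it was -0.06 (adjusted p = 0.69), and with miR-92a-3p and miR-19b-3p counted in full it was -0.16 (adjusted p = 0.30). miR-92a-3p made up 82.5% of the reads of the arms of this cluster, miR-19b-3p 7.95%, miR-20a-5p 5.09%, miR-17-5p 3.18% and miR-19a-3p 0.84%, counting all reads of arms shared with the X-linked copies. Those shared reads are in these shares but not in the tested sum. Reads matching both copies of mir-92a were 19.1 to 21.9% of miR-92a-3p reads in model and 25.5 to 29.6% in Keluoxin. Leaving these out lowers the tested sum more in Keluoxin, also in the 2 fits that passed. Summed in full over its arms, on the scale of the arm levels, the cluster averaged 2248 CPM ± 201 over the model libraries and 2225 ± 277 over those of Keluoxin (SD, n = 6 per group). The X-linked miR-106a~miR-363 sum ran from 255 to 313 and from 167 to 338 CPM, at -0.12 (SE 0.15, adjusted p = 0.58).

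The paralogous and same-seed precursors mir-106a, mir-18b, mir-20b, mir-19b-2, mir-363, mir-32, mir-92b and mir-367 were looked up as well. Apart from miR-19b-3p, which is shared with a member, 9 of their arms had reads and 2 could be tested, and neither passed: miR-92b-3p, with 13112 reads more abundant than any member except miR-92a-3p and miR-25-3p (159 to 263 CPM in model, 112 to 282 in Keluoxin, -0.16, SE 0.21, adjusted p = 0.57) and miR-32-5p (-0.09, SE 0.27, adjusted p = 0.82). The X-linked arms miR-106a-5p, miR-20b-5p and miR-363-3p had 57, 34 and 89 reads in all libraries together. miR-17-5p and miR-20a-5p, members with the seed of miR-106a-5p and miR-20b-5p, had 4418 and 7065, and miR-25-3p, a member with the seed of miR-363-3p, had 38015.

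The 2 genes for miR-92a-3p can be told apart only past the shared mature sequence. From the deposited precursors, the shared 21 bases and the 5 bases after them (in capitals) read as follows.
mir-92a-1: tattgcacttgtcccggcctgTTGAG
mir-92a-2: tattgcacttgtcccggcctgAGGAA
A read that ends in T after the shared part matches mir-92a-1, one that ends in A matches mir-92a-2, and one that ends before that point, or in C or G, matches both equally. A base added to the end of a mature miRNA therefore cannot be told apart from a base of one of the copies.

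Of the miR-92a-3p reads, 66.1% matched mir-92a-1 alone, 24.0% matched both copies and 9.86% matched mir-92a-2 alone. The share of mir-92a-1 was 67.5 to 71.2% in model and 60.1 to 65.5% in Keluoxin, without overlap. The share matching both copies was 19.1 to 21.9% in model and 25.5 to 29.6% in Keluoxin, also without overlap, and the share of mir-92a-2 overlapped (9.23 to 10.7% and 7.79 to 10.9%). Splitting the reads that match both copies showed where this gap lay. Exact reads were 3.61 to 5.67% of miR-92a-3p in model and 3.37 to 6.52% in Keluoxin, whereas reads with a differing base were 14.7 to 18.2% and 20.1 to 25.04%. Of these 2 kinds, the reads with a difference were separated between the groups and the exact reads were not. Over all arms, the share of reads with a difference was higher in Keluoxin without overlap in 29.7% of 381 arms. No such rate was computed for shares by copy, so the separation is not a result about the 2 genes. As levels, reads of mir-92a-1 alone were at -0.17 (adjusted p = 0.27), of both copies at 0.38 (SE 0.14, adjusted p = 0.073) and of mir-92a-2 alone at -0.03 (adjusted p = 0.91) in a fit of reads by the exact set of precursors they match, in which 19.4% of 1062 sets passed. The 249 reads that match both copies and also mir-92b passed in this fit (1.14, SE 0.37, edgeR adjusted p = 0.048). They stood at 1.90 to 5.18 CPM in model and 2.92 to 11.5 in Keluoxin, and were not followed through the alternatives. In the same fit reads of mir-25 alone were at -0.36 (SE 0.11, adjusted p = 0.042), a call lost without any 1 of model libraries 2, 4, 5 and 6 or Keluoxin libraries 1, 5 and 6 (adjusted p up to 0.087).

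**Figure D3:**
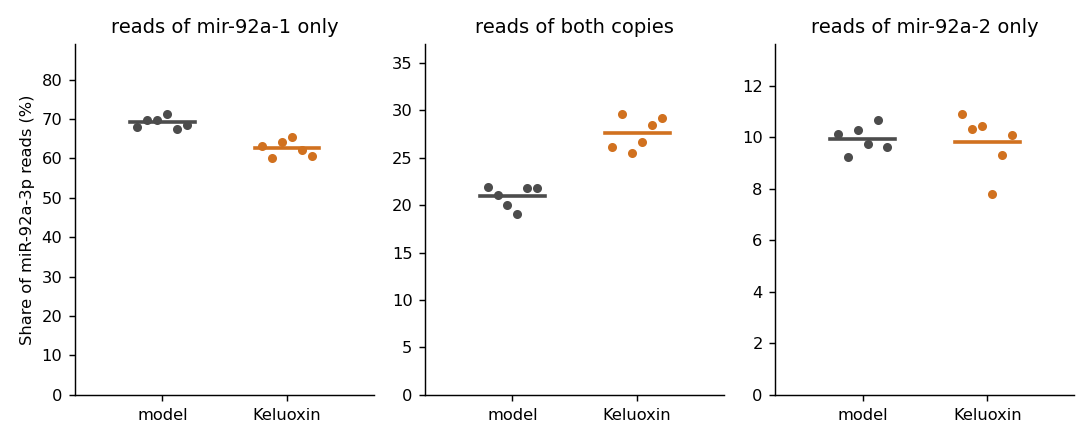
Share of miR-92a-3p reads (percent, 1 point per library) that match mir-92a-1 alone, both copies, or mir-92a-2 alone. The 6 Keluoxin libraries lie below the 6 model libraries for mir-92a-1 and above them for reads matching both copies. Reads with a differing last base C or G are among those matching both copies.

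The balance between the arms of a hairpin could be tested for 3 members, of which 0 passed, against 14.1% of the 170 precursors in the test. The mir-106b hairpin is shown because its arms were nearly equal; the mature arms are in capitals, 5p first.
mir-106b: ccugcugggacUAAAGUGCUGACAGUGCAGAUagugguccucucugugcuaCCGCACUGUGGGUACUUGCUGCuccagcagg
Log2 of its 5p over its 3p reads ran from -0.86 to -0.18 in model and from -0.47 to 0.32 in Keluoxin, a difference of 0.22 (SE 0.18, limma adjusted p = 0.40). The ratio for mir-17 ran from 3.38 to 3.68 and from 2.90 to 4.53, so its 5p arm prevailed in every library (difference 0.17, SE 0.26, adjusted p = 0.69). For mir-92a-1 the 3p arm prevailed in every library, with few 5p reads. Its 3p count in this ratio held all miR-92a-3p reads, including those that match mir-92a-2, so the ratio is not that of the mir-92a-1 hairpin alone.

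The 5′ end, which sets the seed, was almost fixed. Reads that began at an arm's most frequent start were 100% of miR-106b-5p reads in every library, at least 97.6% for miR-20a-5p, miR-19b-3p, miR-92a-3p, miR-93-5p and miR-25-3p, and 95.2 to 98.98% for miR-17-5p. miR-106b-3p was the least precise, with 88.3 to 93.1% in model and 87.3 to 91.2% in Keluoxin. Of the 7 members tested 0 passed, against 3.76% of 372 arms. miR-25-3p passed only without Keluoxin library 4 (99.5% in model, a difference of 0.37 points, adjusted p = 0.045, against 0.22 points and adjusted p = 0.57 with it). Mean read length passed for 0 of 8 members, against 8.14% of 381 arms: miR-92a-3p was 22.3 nt in model and 22.2 nt in Keluoxin (difference -0.11, SE 0.04, adjusted p = 0.083), and miR-25-3p was 21.7 and 21.6 nt (-0.09, SE 0.03, adjusted p = 0.098). miR-106b-3p was 20.8 and 20.9 nt (0.10, SE 0.04, adjusted p = 0.12).

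The 3′ ends did differ. For 8 of 8 members tested, the share of reads with a difference from the precursor was higher in Keluoxin at an adjusted p under 0.05 (limma). This was common in the study, as 59.8% of the 378 arms in the test were higher, and over all reads the share was 39.1 to 43.2% in model and 43.9 to 50.5% in Keluoxin. The median difference was 7.2 percentage points over the 8 members and 6.1 over all arms. The groups did not overlap for 4 of the 8, against 29.7% of 381 arms. In the first 18 bases of the reads 0 of 8 members passed. A deposited read may carry at most 1 difference, so reads with more are not counted in either group.

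miR-25-3p had one of the largest rises, at place 30 of the 378 arms by size. Its share was 37.4 to 42.2% in model (median 39.7) and 49.4 to 54.4% in Keluoxin (median 51.9), a difference of 12.2 points (SE 0.99, adjusted p = 3.68e-06). Every Keluoxin library lay above every model library, with a gap between the groups wider than the range within either. miR-19b-3p rose by a similar 12.6 points (SE 3.06, adjusted p = 0.0038) but from a wide model range of 39.6 to 58.4%, in which model libraries 1 and 2, low in this miRNA, were highest; Keluoxin ran from 57.8 to 65.7%. Without those 2 libraries the difference was 17.0 points.

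The other members rose by less. miR-92a-3p went from 39.8 to 47.1% in model to 47.6 to 51.3% in Keluoxin (6.1 points, SE 1.17, adjusted p = 0.000895), miR-20a-5p from 32.8 to 36.0% to 39.3 to 44.6% (7.2 points, SE 1.16, adjusted p = 0.000287) and miR-93-5p from 31.3 to 35.1% to 37.4 to 44.0% (7.2 points, SE 1.2, adjusted p = 0.000356). None of these 3 overlapped between the groups. miR-106b-3p (9.0 points, adjusted p = 0.0029), miR-17-5p (5.7 points, adjusted p = 0.015) and miR-106b-5p (5.0 points, adjusted p = 0.043) overlapped. The call of miR-106b-5p was lost in 11 of 16 alternatives, among them the fits without model library 1, 2, 3 or 5 or Keluoxin library 1, 2, 3 or 6 (adjusted p from 0.060 to 0.091), and its share was lowest in Keluoxin library 4, without which the difference was 6.7 points (adjusted p = 0.0017).

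**Figure D4:**
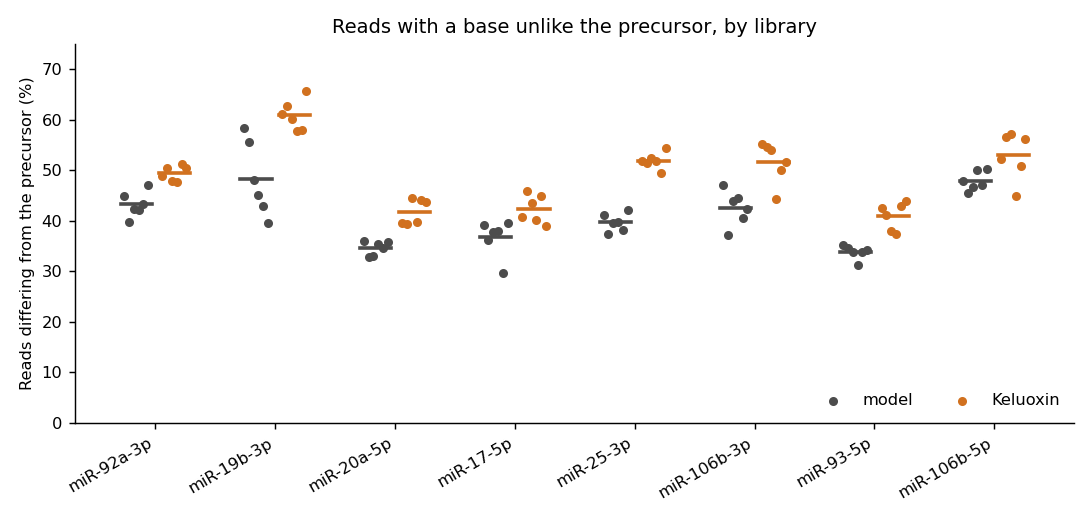
Share of an arm's reads with a difference from the precursor (percent, 1 point per library) for the 8 members tested. For miR-25-3p, miR-92a-3p, miR-20a-5p and miR-93-5p all 6 Keluoxin libraries lie above all 6 model libraries.

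The most frequent reads of miR-25-3p show the change base by base. They are printed as sequenced, with a last base that is not in the precursor in capitals.
miR-25-3p, exact: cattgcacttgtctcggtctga
miR-25-3p, exact and 1 base shorter: cattgcacttgtctcggtctg
miR-25-3p, ending in T: cattgcacttgtctcggtctgT
miR-25-3p, ending in G: cattgcacttgtctcggtctgG
The exact read, identical to the annotated mature sequence, made up 40.3% ± 0.96 of the arm in the model libraries and 29.8% ± 1.41 in those of Keluoxin (SD, n = 6 per group), without overlap. The exact shorter read went from 13.6% ± 0.82 to 10.7% ± 1.60, also without overlap. The read ending in T went from 12.5% ± 1.47 to 14.1% ± 0.99 with overlap, and the read ending in G from 3.49% ± 0.33 to 6.59% ± 1.94 without overlap. The last 2 can be read as the shorter form with 1 base added, or as the full form with its last base changed. The reads do not tell these apart. Over 381 arms, the share of all exact reads was lower in Keluoxin without overlap in 29.7%. The share with a differing last base G was higher without overlap in 16.5%.

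For miR-92a-3p the reads moved in opposite directions by base.
miR-92a-3p, exact to mir-92a-1: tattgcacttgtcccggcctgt
miR-92a-3p, that read with an added A: tattgcacttgtcccggcctgtA
miR-92a-3p, ending in C: tattgcacttgtcccggcctgC
miR-92a-3p, ending in G: tattgcacttgtcccggcctgG
The exact read of 22 nt went from 41.6% ± 1.76 in model to 36.8% ± 1.26 in Keluoxin, and the read with an added A from 7.66% ± 0.37 to 4.66% ± 0.46, both without overlap. The read ending in C went from 6.96% ± 1.22 to 10.5% ± 2.00 with overlap, and the read ending in G from 3.25% ± 0.31 to 5.38% ± 1.38 without overlap. These shares are descriptions of single reads, without a test of their own. Over 381 arms, the share of all exact reads was lower in Keluoxin without overlap in 29.7%. A differing last base A was lower without overlap in 8.92%, and a differing last base G higher in 16.5%.

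The differences were then sorted by kind. A last base C that is not in the precursor was higher in Keluoxin for 8 of 8 members, against 56.6% of 350 arms. G was higher for 6 of 8 (51.4% of 362 arms), and T for 3 of 8 (15.7% of 356 arms), which were miR-20a-5p, miR-93-5p and miR-25-3p. Another differing base past base 18 was higher for 7 of 8 (66.7% of 315 arms), and an insertion or deletion for 2 of 8 (34.5% of 281 arms), miR-25-3p and miR-17-5p. A differing base among bases 1 to 18 was higher for 0 of 8 (8.2% of 378 arms). For miR-25-3p the last base G went from 5.51 to 7.20% in model to 7.30 to 13.4% in Keluoxin (2.9 points, SE 0.87, adjusted p = 0.020). Some of these calls were lost in part of 13 alternatives (leaving out 1 library at a time, or the replicate block). That of the last base C of miR-106b-5p was lost in 9, the fits without model library 1, 2, 3, 4 or 5 or Keluoxin library 1, 3, 5 or 6 (adjusted p from 0.056 to 0.087). The last base G of miR-17-5p was lost in 9 (the block, and without model library 1, 2, 3 or 4 or Keluoxin library 1, 2, 3 or 4) and that of miR-93-5p in 8 (the block, and without model library 2, 3, 4, 5 or 6 or Keluoxin library 5 or 6). The last base T of miR-25-3p was lost in 9 (the block, and without model library 2, 3, 5 or 6 or Keluoxin library 3, 4, 5 or 6), and another base past base 18 of miR-19b-3p in 5 (without model library 1, 2 or 3 or Keluoxin library 3 or 6).

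A last base A, the usual product of adenylating enzymes, was lower in Keluoxin for 2 of 8 members, against 16.9% of 361 arms. For miR-92a-3p it was 8.75 to 10.1% in model and 5.68 to 6.97% in Keluoxin, a difference of -3.31 points (SE 0.27, adjusted p = 3.68e-05) without overlap. For miR-106b-5p it went from 5.67 to 7.37% to 3.09 to 5.74% (-2.0 points, SE 0.48, adjusted p = 0.016). Last base A was the most frequent difference of miR-17-5p (22.7 to 31.5% in model, 18.8 to 29.9% in Keluoxin) and miR-20a-5p (21.4 to 28.0% and 17.96 to 28.7%), where it did not pass (adjusted p = 0.20 and 0.40). For miR-19b-3p the most frequent difference was a last base T, 21.97 to 39.9% in model and 34.5 to 38.4% in Keluoxin (6.2 points, SE 2.83, adjusted p = 0.14), again with model libraries 1 and 2 among the highest of model.

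**Figure D5:**
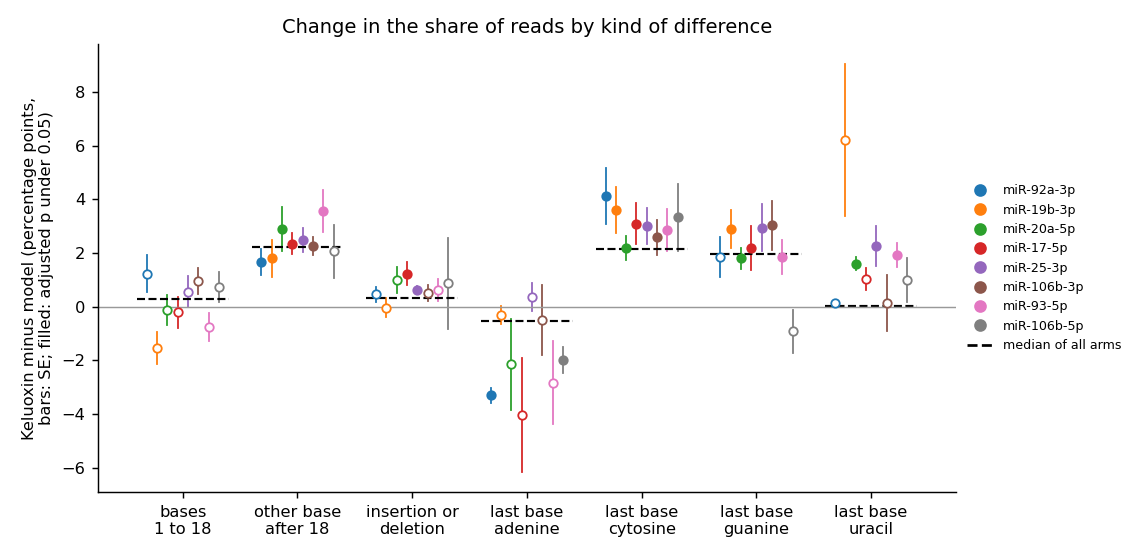
Difference in the share of reads between Keluoxin and model (percentage points) for each kind of difference and each of the 8 members, with filled points for an adjusted p under 0.05 and a dashed line at the median of all arms. A last cytosine is higher for all 8 members, and a last adenine is lower for miR-92a-3p and miR-106b-5p.

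Which other miRNAs behaved most like the leading members was read from the SD, over the 12 libraries, of the log2 ratio between the levels, so that a small SD marks a steady ratio. Among 171 annotated arms outside the clusters with at least 100 CPM on average, those closest to miR-92a-3p were miR-181b-5p (SD 0.09), let-7d-5p (0.11) and miR-139-5p (0.12), against a median of 0.29. Those closest to miR-25-3p were miR-99a-5p (0.11), miR-100-5p (0.12) and miR-27b-3p (0.12), against a median of 0.28. The ratio between miR-92a-3p and miR-25-3p themselves had an SD of 0.20, and that between miR-25-3p and its cluster mate miR-106b-3p one of 0.18. miR-19b-3p, added after its values were seen, had its steadiest ratio to miR-30e-5p (0.21) among these arms and stood at 0.21 to miR-19a-3p, against a median of 0.64; its SD to miR-92a-3p, made from the same primary RNA, was 0.66.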

How the data were processed

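Small RNAs of 12 libraries, 6 model and 6 Keluoxin, were read from 1 processed table each. Per the labels' protocols, 1 µg of RNA per library went into the NEBNext kit for small RNAs, and inserts of 15 to 35 nt were kept. Cutadapt, bcl2fastq, Novoalign and Bowtie were used, per the submitters' processing notes, which give no versions. The genome build and the miRBase release behind the alignments were not given in the sources used here. The deposited count of a row is a whole number, without normalization, and divides a sequence's reads equally among the rows it matches. Sequences run from 15 to 51 nt and have 2 reads or more. Per the file headers, each row gives the precursor it aligns to, the positions, and the differing, inserted or deleted bases. A row held at most 1 difference. Positions in the other deposited columns have 5 added, as in 99.2% of exact member rows.

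Undivided reads, kept in the tag name, were summed per mature arm, an arm being the part of the precursor before or after its middle. Copies of a miRNA that share at least 10% of the smaller copy's reads were joined, and reads on several arms (2.53%) were shared equally and rounded. Precursors within 10000 bp on a strand formed a cluster, from exact matches of 987 of 997 annotated precursors to GRCm38 (GENCODE M21). Seed families share bases 2 to 8 of the most frequent read.

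Counts were tested with edgeR 4.0.16 in R 4.3.3 (TMM, filterByExpr, quasi-likelihood test, Benjamini-Hochberg over all features, threshold 0.05; biological coefficient of variation 0.480). Standard errors are the log2 fold change over the square root of F, and approximate 95% intervals use 10 degrees of freedom. Arm ratios (10 or more reads per arm in 6 libraries, 0.5 added), mean lengths, starts and shares of differing reads (at least 50 reads in every library) were tested with limma 3.58.1. Arms without variance were left out of those tests. DESeq2 1.42.0 was an alternative, as were other scalings, filters, read sets and leaving out each library. Python 3.11.15, pandas 2.3.3, NumPy 2.4.6 and SciPy 1.17.1 were used. On simulated data the share test recovered 84% of 100 arms shifted by 10 percentage points and called 4 of 281 unchanged ones. The simulated arms varied independently, with the spread of the model libraries alone. Only miR-25-3p and miR-19b-3p rose by more than the simulated shift. These rates therefore do not measure the calls of the members, where many arms moved together. The level test called 4 of 610 unchanged arms. Library totals are the counted reads of the tables. Reads have no molecular identifiers, so counts are not independent molecules.

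The members and all lists were chosen with earlier results of these data known. Every member arm with a read is accounted for, and those past the filter are named. The related precursors, the 3 steadiest ratios to the leading arm of each cluster and the marker lists follow rules of the same kind. Replicate numbers were not taken as pairs: deviations of same-numbered libraries correlated at 0.04 to 0.24, over 0.1 in 4 of 6.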

Additional observations from a re-analysis of the deposited data

Results flagged for a closer look

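In each group of 6 libraries, the highest and the lowest value of every member measure were compared with their nearest neighbour (Dixon's gap over the range). Of 88 groups checked, 10 held a value that stood apart, where the nominal rate is about 1 in 20. That rate does not hold for shares at their upper limit with tied values, such as some shares at the main start. The measures also overlap, so the count does not show an excess over chance. Model library 6 was high in miR-17-5p (99.5 CPM, next 71.4) and in miR-17-3p (9.43 CPM, next 6.53). Model library 2 was high in the AUUGCAC family sum (3282 CPM, next 2693) and low in the arm ratio of mir-92a-1 (-14.7 on the log2 scale, next -10.2), where it had no 5p read. Keluoxin library 4 had the shortest miR-93-5p reads (22.6 nt, next 22.9) and the lowest share of miR-25-3p reads at the main start (98.98%, next 99.7%). The share at the main start was also lowest for miR-20a-5p in model library 1 (99.5%) and for miR-19b-3p in model library 3 (99.3%). The share of reads with a difference was lowest for miR-17-5p in model library 5 (29.7%, next 36.2%) and for miR-93-5p in model library 4 (31.3%, next 33.7%). The causes were not tested.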

How the results depend on the processing

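Log2 fold changes near 0 turned with the setting, and the cause was not tested. With RLE scaling, miR-92a-3p was at -0.021 and AAAGUGC at -0.0027. With upper quartile scaling, which moved the median of all arms by -0.27, miR-92a-3p was at -0.25, miR-106b-5p at -0.14 and AAAGUGC at -0.19. Total counted reads moved that median by 0.19. Values there were 0.11 (miR-17-5p), 0.14 (miR-17-3p), 0.0047 (miR-20a-5p), 0.072 (miR-19b-3p), 0.084 (miR-106b-3p), 0.17 (miR-93-5p), 0.096 (GUGCAAA), 0.091 (AUUGCAC) and 0.084 (CGCACUG). The clusters stood there at 0.071 (miR-17~92), 0.013 (miR-106b~25) and 0.22 (miR-106a~miR-363), against a median shift of 0.36. Higher calls made up 53.6% of arm calls with TMM, 39.4% with upper quartile scaling and 77.4% with total reads. For clusters these were 49.5%, 60.2% and 84.9%, and for seed families 40.6% with TMM and 58.3% with total reads.

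Without a filter, miR-92a-3p was at -0.053 and AAAGUGC at -0.0050. DESeq2 gave -0.017 for miR-92a-3p. Exact reads gave 0.023 (miR-17-5p), 0.059 (miR-17-3p) and 0.040 (miR-93-5p), and reads of 1 miRNA -0.0097 for AAAGUGC. Annotated precursors alone gave 0.0088 (miR-17-5p), 0.0072 (miR-17-3p), 0.072 (miR-93-5p), 0.032 (GUGCAAA), 0.083 (AUUGCAC), 0.061 (CGCACUG) and 0.045 (miR-106a~miR-363). Leaving out model libraries 1 and 2, a choice made after seeing the data, gave -0.076 for AAAGUGC and 0.012 for AUUGCAC. miR-106a~miR-363 was at 0.55 with miR-92a-3p and miR-19b-3p counted in full for chromosome 14, and at 0.69 without miR-92a-3p reads, which removes its main arm.

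Member arms called were 1 (miR-25-3p) under RLE, upper quartile, DESeq2, exact reads and 18 to 26 nt. Member clusters called were 0 under upper quartile, total reads, no filter and the block. All arms called were 140, against 235 with DESeq2, 68 for annotated precursors and 226 without model libraries 1 and 2. Seed families called were 64, against 110 (DESeq2), 36 (total reads), 16 (no filter) and 128 (without model libraries 1 and 2). Clusters called were 95, against 58 (no filter), 56 (exact reads), 29 (annotated) and 155 (without model libraries 1 and 2). For differences in the first 18 bases, 0 members and 39 arms were called, and values were -0.21 (miR-17-5p), -0.20 (miR-20a-5p), -1.56 (miR-19b-3p) and -0.66 points (miR-93-5p).

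The replicate block treats same-numbered libraries as pairs, which the labels do not state. Each number correlated best with its own in 1 of 6, a check that cannot exclude pairing. The block gave 0.014 for miR-19b-3p, 0.068 for GUGCAAA and 31 seed families. It gave 0 member clusters (miR-106b~25 edgeR adjusted p = 0.052) and 4 arms for read start. It ended the calls of miR-17-5p (adjusted p = 0.057) and miR-106b-5p (0.083) for differing reads, of the last base T of miR-25-3p (0.064) and of the last base G of miR-17-5p (0.093) and miR-93-5p (0.067).

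Leaving out 1 library at a time gave 0 to 1 member arms, 71 to 244 arms, 1 to 126 seed families, 0 to 2 member clusters and 40 to 183 clusters. Sets of precursors ran from 113 to 345 (members 0 to 2, not counting the set that also matches mir-92b). Arm ratios ran from 9 to 28, lengths from 14 to 72, starts from 6 to 25 (members 0 to 1), last base A from 47 to 104 arms and last base T from 2 to 5 members. The ranges were -0.12 to 0.030 (miR-17-5p), -0.28 to 0.035 (miR-17-3p), -0.29 to 0.078 (miR-19b-3p), -0.046 to 0.072 (miR-92a-3p), -0.065 to 0.044 (miR-93-5p), -0.039 to 0.080 (AAAGUGC), -0.21 to 0.13 (GUGCAAA), -0.098 to 0.025 (AUUGCAC) and -0.10 to 0.077 (mir-92a-2 alone). Arm ratio differences ran from -0.0016 to 0.32 (mir-17) and from -0.51 to 0.69 (mir-92a-1). Model library 1 gave the highest and model library 4 the lowest counts of arms and seed families.

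The depth of the member arms limits what could be seen: 5 of 15 had 4 to 122 reads in all libraries.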
